A study of Mus musculus with 4 samples.

Results

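The pigment genes of melanocytes described here are Tyr, Tyrp1, Dct, Pmel, Mlana, Mitf, Slc45a2 and Oca2. They were chosen by name, and all 8 were found among the 23203 gene symbols that stand on 1 line each of the deposited tables. Their transcripts were measured by 3′ RNA sequencing in adult mouse skin of the C57BL/6 strain, with 1 library in each of 4 groups. The groups were Egr1 knockout (KO) skin treated with sodium dodecyl sulfate (SDS) and house dust mite (HDM) extract, wild-type (WT) skin treated with SDS and HDM, naive KO skin and naive WT skin. The naive groups are labelled as given SDS alone. HDM cream was put on the shaved neck and on the ears, 100 mg at a time, 2 times per week for 3 weeks. The labels give neither the disrupted part of Egr1 nor the number of animals behind a library. With 1 library per group, a difference compares 2 libraries, and its intervals cover counting error alone and not the spread between animals. Where a bulk level differs, fewer cells of a type and less RNA per cell cannot be told apart.

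Melanocytes make melanin inside lysosome-related organelles, the melanosomes, and hand these over to keratinocytes. The transcription factor MITF drives the pigment genes. Tyrosinase starts the synthesis, DCT and TYRP1 act further along the eumelanin branch, PMEL forms the fibrils on which melanin is laid down, and transporters such as SLC45A2 and OCA2 set the conditions inside the organelle. In mouse body skin the pigment-producing melanocytes sit mostly in the bulb of growing hair follicles and make pigment only in the growth phase, anagen. Ear and tail skin also hold melanocytes outside the follicles.

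Some traits of the libraries touch every result below. Totals lay between 9428803 and 10108068 recovered reads per library, and a count of 0 allows up to 3 reads, or 0.297 to 0.318 reads in a library scaled to 1000000. The naive KO library stood apart: 336 genes were at 0 reads there with 50 or more in each other library, against 0 to 5 such genes in the others. Of the genes tested, those with at least 20 reads summed over the 4 libraries, 16.2% were at 0 in naive KO, against 1.39% to 3.01% in the other libraries. Xist, the RNA of the inactive X chromosome, had 2433 and 2195 reads in the KO and WT HDM libraries, against 40 and 10 in naive KO and naive WT. Ddx3y, a gene of the Y chromosome, had 1 read in each HDM library, against 2431 and 1926 in naive KO and naive WT. By these transcripts the HDM libraries read as female and the naive libraries as male. HDM and the sex of the animals therefore cannot be told apart in any value of HDM against naive below. Egr1 itself had 3494 reads in KO HDM and 1174 in WT HDM, and 3159 in naive KO and 1966 in naive WT. It was thus not lower in the libraries labelled KO, and a 3′ tag that lies outside a deleted part checks no label. Directions between genotypes below are those between the libraries labelled KO and WT. Transcripts of 8 cartilage genes summed to 63 reads in KO HDM, 14216 in WT HDM, 22459 in naive KO and 24764 in naive WT. Ear skin lies on cartilage, and both neck and ears were treated, but the labels do not say which site a library was made from. A difference in the sampled site and a difference in genotype under HDM therefore cannot be told apart in any value of KO HDM against WT HDM below. The same holds for the sampled site and HDM in any value of KO HDM against naive KO.

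All 8 pigment genes had reads in KO HDM skin, and the library held the highest value of 6 of them. Of all genes tested, 21.2% were highest in that library. Of the 6, Tyr, Slc45a2 and Oca2 passed the filter on summed reads through KO HDM and had to be highest there. Nothing is therefore read from the count of 6 against that share. The 3 melanin enzymes, Mlana and both transporters were 4.72-fold or more higher in KO HDM than in WT HDM skin, by the ratio or, for genes at 0 reads, its lower limit, while Mitf was 1.47-fold higher. WT HDM skin held the highest value of none of the 8, and at 1862 summed reads it had the fewest, against 5473 in KO HDM, 4261 in naive KO and 4031 in naive WT. Most of these sums are Pmel and Dct reads. The levels below are the deposited log2 values, with the recovered reads beside them.

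**Figure D1:**
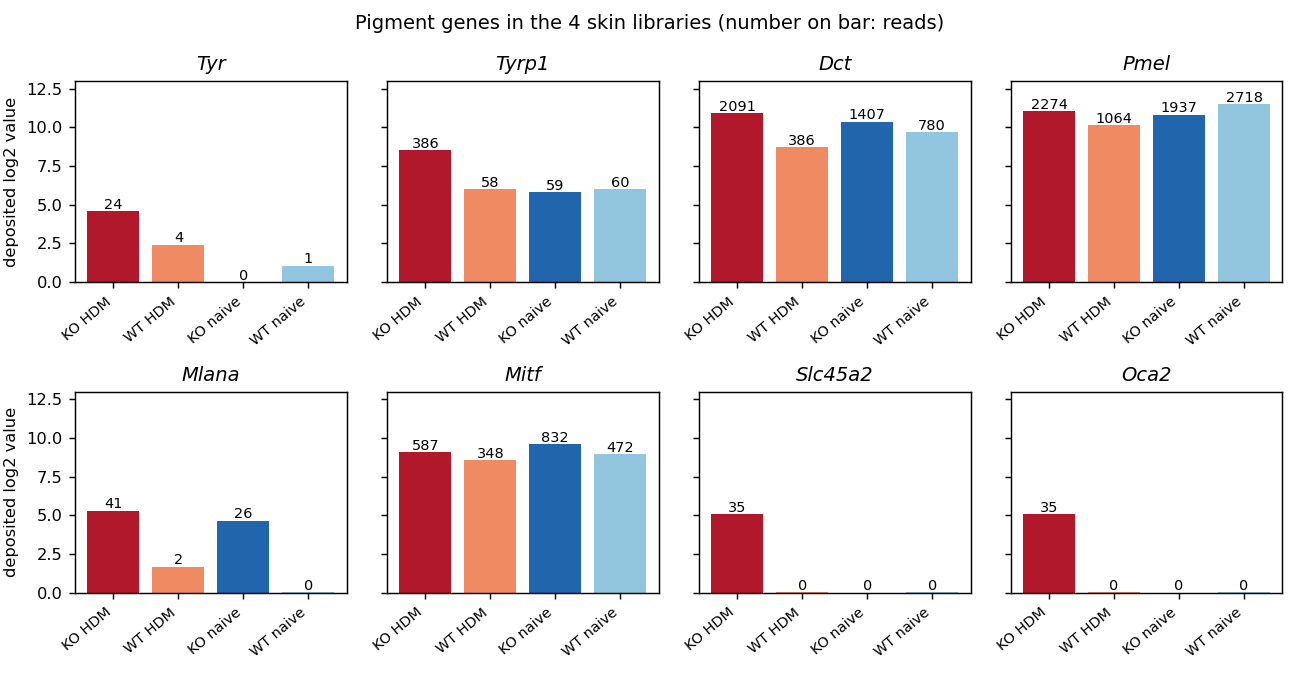
Deposited log2 value (vertical axis) of each pigment gene in the 4 libraries, 1 bar per library, with the recovered reads written on the bar. Tyr, Tyrp1, Dct, Mlana, Slc45a2 and Oca2 are highest in KO HDM, Mitf in naive KO and Pmel in naive WT.

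The melanin enzymes come first, and the sequence before their start sites is shown because the 3 genes differed in the same direction between the HDM libraries. RefSeq promoter windows, 250 bases before to 50 after an annotated start on GRCm38.p6, matched 5 of the 8 members. The windows lie at chr7:87493463-87493762 for Tyr (minus strand), chr4:80833963-80834262 for Tyrp1 (plus strand) and chr14:118052197-118052496 for Dct (minus strand). They are printed 5′ to 3′ on the strand of the gene. Capitals mark CATGTG on either strand (written CACATG where it lies on the other strand), the E-box core of the M-box that MITF is known to bind.
Tyr: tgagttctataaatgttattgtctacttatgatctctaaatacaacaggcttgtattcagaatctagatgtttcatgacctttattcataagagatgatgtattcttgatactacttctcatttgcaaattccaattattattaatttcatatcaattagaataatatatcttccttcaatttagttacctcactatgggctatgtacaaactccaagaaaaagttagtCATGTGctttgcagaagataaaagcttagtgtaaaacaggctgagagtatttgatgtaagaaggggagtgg
Tyrp1: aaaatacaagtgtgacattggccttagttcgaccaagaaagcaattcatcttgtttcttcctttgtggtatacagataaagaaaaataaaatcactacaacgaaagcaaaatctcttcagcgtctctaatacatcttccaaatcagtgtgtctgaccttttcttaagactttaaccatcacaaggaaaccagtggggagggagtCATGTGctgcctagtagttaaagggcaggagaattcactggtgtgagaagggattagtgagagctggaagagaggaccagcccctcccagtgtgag
Dct: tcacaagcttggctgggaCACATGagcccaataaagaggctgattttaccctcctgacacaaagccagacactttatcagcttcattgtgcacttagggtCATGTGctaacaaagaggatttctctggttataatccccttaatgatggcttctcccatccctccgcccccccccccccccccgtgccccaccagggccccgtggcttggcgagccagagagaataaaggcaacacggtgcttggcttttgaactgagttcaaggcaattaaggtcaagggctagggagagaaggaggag
The letters CATGTG began 21 bases before the start in Tyr, 46 in Tyrp1 and 150 in Dct. In all 3 genes they lay within the longer TCATGTGCT on the printed strand, and Dct had a further CACATG 232 bases before its start. The Oca2 window held CACATG 186 bases before the start, and the 3 Mitf windows held neither CATGTG nor CACGTG on either strand. Of 32851 windows of this length, 14.2% held CATGTG, 7.15% held CACGTG and 0.408% held TCATGTGCT on either strand. A match of letters is a description of the window and not a bound site.

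Tyr encodes tyrosinase, the rate-limiting enzyme of melanin synthesis (chromosome 7, 87424771 to 87493512, minus strand, in the GENCODE M21 annotation of the same build as mm10, as for the genes that follow). It had a log2 value of 4.56 in KO HDM and 2.42 in WT HDM, and of 0 in naive KO and 1.06 in naive WT, from 24, 4, 0 and 1 reads. Only the KO HDM library had more than a handful of reads. The KO HDM library was 5.23-fold higher than WT HDM (95% counting interval 1.80 to 20.7) and at least 8.03-fold higher than naive KO. In WT skin the ratio of HDM to naive was 4.08, with an interval of 0.404 to 201 that spans 1.

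Tyrp1 encodes tyrosinase-related protein 1, which acts late in eumelanin synthesis (chromosome 4, 80834123 to 80851719, plus strand). Its log2 values were 8.51 in KO HDM and 5.99 in WT HDM, against 5.81 in naive KO and 6.01 in naive WT, from 386, 58, 59 and 60 reads. Thus 3 libraries lay close together and KO HDM stood above them. The KO HDM library was 5.80-fold higher than WT HDM (4.39 to 7.78) and 6.56-fold higher than naive KO (4.98 to 8.79). The ratios of WT HDM to naive WT, 0.987 (0.676 to 1.44), and of naive KO to naive WT, 0.872 (0.598 to 1.27), had intervals that span 1.

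Dct encodes dopachrome tautomerase, which acts between tyrosinase and TYRP1 and is also a marker of unpigmented melanoblasts (chromosome 14, 118012790 to 118052244, minus strand). It stood at 10.94 in KO HDM and 8.70 in WT HDM, and at 10.36 in naive KO and 9.69 in naive WT, from 2091, 386, 1407 and 780 reads. Both KO libraries lay above both WT libraries. The KO library was 4.72-fold higher than WT under HDM (4.23 to 5.27) and 1.60-fold higher in naive skin (1.46 to 1.75). HDM skin was 1.49-fold higher than naive in KO (1.39 to 1.60) and 1.98-fold lower than naive in WT (1.75 to 2.24), so the HDM difference had opposite signs in the 2 genotypes.

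Pmel, whose product forms the amyloid fibrils of the melanosome (chromosome 10, 128704195 to 128720238, plus strand), cannot be read as a pigment gene alone in these tables. Its annotated 3′ end shares 105 bases with that of Dgka, the diacylglycerol kinase alpha gene on the opposite strand (128720134 to 128744855). The tables give almost the same reads for both: 2274 for Pmel and 2260 for Dgka in KO HDM, 1064 and 1124 in WT HDM, 1937 and 1946 in naive KO, and 2718 and 2865 in naive WT. The ratio of Dgka to Pmel reads stayed between 0.994 and 1.06. Whether the counting used strand is not given in the sources used here, and reads of the 2 genes cannot be told apart. With that limit, Pmel was 1.86-fold higher in KO HDM than in WT HDM (1.73 to 2.00), 1.18-fold higher in KO HDM than in naive KO (1.11 to 1.25), 2.50-fold lower in WT HDM than in naive WT (2.33 to 2.69) and 1.58-fold lower in naive KO than in naive WT (1.49 to 1.68). It was the member highest in naive WT skin, with a log2 value of 11.49, against 11.06, 10.17 and 10.83 in KO HDM, WT HDM and naive KO.

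**Figure D2:**
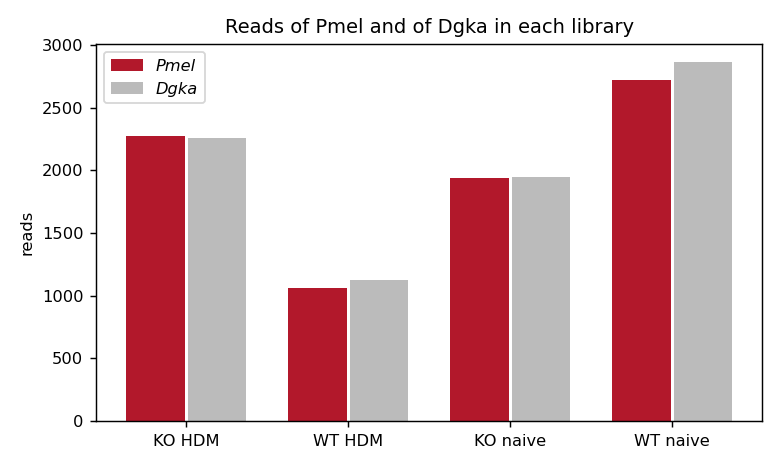
Reads (vertical axis) of Pmel and of Dgka, whose 3′ ends overlap on opposite strands, in each library. Both bars of a library are nearly equal, from 1064 and 1124 reads in WT HDM to 2718 and 2865 in naive WT.

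Mlana encodes MART-1, a melanosome protein needed for the processing of PMEL (chromosome 19, 29697824 to 29708634, plus strand). It had 41 reads in KO HDM and 2 in WT HDM, and 26 in naive KO and 0 in naive WT, with log2 values of 5.31, 1.67, 4.66 and 0.027. It was the one member with more than 3 reads in both KO libraries and at most 3 in both WT libraries. The KO HDM library was 17.9-fold higher than WT HDM (4.64 to 152), and naive KO at least 7.68-fold higher than naive WT. Within KO skin the ratio of HDM to naive was 1.58, with an interval of 0.945 to 2.69.

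Mitf, the gene of the master transcription factor of melanocytes, is also expressed in mast cells, macrophages and other cells (chromosome 6, 97807052 to 98021349, plus strand), and its 3′ tags do not separate the isoforms. It varied least: 9.11 in KO HDM and 8.56 in WT HDM, and 9.61 in naive KO and 8.96 in naive WT, from 587, 348, 832 and 472 reads. Both naive libraries lay above the HDM library of their genotype, and both KO libraries above the WT library of their treatment. HDM skin was 1.41-fold lower than naive in KO (1.27 to 1.57) and 1.33-fold lower in WT (1.15 to 1.53). KO skin was 1.47-fold higher than WT under HDM (1.28 to 1.68) and 1.56-fold higher in naive skin (1.39 to 1.75). No difference of Mitf reached 2-fold in these 4 comparisons.

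The melanosome transport genes were read in a single library. Slc45a2 (chromosome 15, 11000721 to 11029233, plus strand), which encodes a transporter needed for tyrosinase to work, and Oca2 (chromosome 7, 56239760 to 56536518, plus strand), which encodes a chloride channel of the melanosome, each had 35 reads in KO HDM. Each had 0 reads in WT HDM, naive KO and naive WT. The equal counts of these genes on different chromosomes are as the tables give them. Each was thus at least 10.2-fold higher in KO HDM than in WT HDM and at least 11.7-fold higher than in naive KO. No fold can be given for the other comparisons. These genes, like Tyr, entered the genes tested through the KO HDM library.

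**Figure D3:**
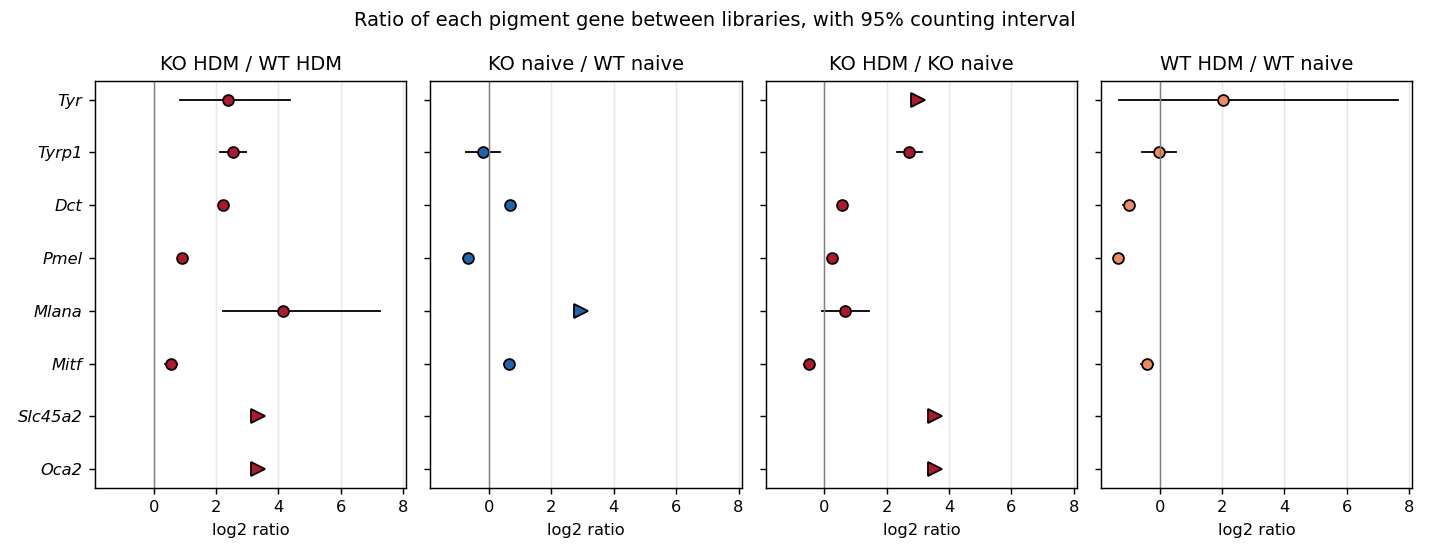
Log2 ratio of each pigment gene between 2 libraries (horizontal axis, the first-named library on top of the ratio). Points have 95% counting intervals, triangles are lower limits for genes with 0 reads in the second library, and genes at or under 3 reads in both libraries are left out. In KO HDM over WT HDM every point or limit lies right of 0.

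Counted by a 2-fold rule on the deposited log2 values, 6 of the 8 members were higher in KO HDM than in WT HDM and 0 lower, against 6.80% higher and 8.49% lower of the 15070 genes tested. The 2 members under 2-fold were Pmel and Mitf. Of the 6, Slc45a2 and Oca2 (35 reads in KO HDM and 0 elsewhere) and Tyr (24 of its 29 reads) passed the filter on summed reads through KO HDM, so that they had to be high there, and the count is a description of the members that is not supported by the shares of all genes. The median log2 difference of the 8 was 2.38, against -0.013 for all genes tested. The same limit holds for this median, which includes Tyr, Slc45a2 and Oca2. It was 1.57 for the 4 members with a mean above the median of all genes. In naive skin, KO against WT gave 1 higher (Mlana) and 1 lower (Tyr, 0 reads against 1), against 14.5% and 28.2% of all genes tested, with a median of -0.025 against -0.15, a shift of all genes toward lower values in naive KO. The share of members called there lies near or below that of all genes.

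For HDM against naive, the members of KO skin gave 4 higher (Tyr, Tyrp1, Slc45a2 and Oca2) and 0 lower, against 32.6% and 18.6% of the genes tested. Of these 4, Tyr, Slc45a2 and Oca2 were at 0 reads in the naive KO library, where many genes were at 0, and passed the filter through KO HDM, so that nothing is read from their count against those shares. The median was 1.67, against 0.25 for all genes tested, and 2.69 without Pmel. It includes Tyr, Slc45a2 and Oca2 and has the same limit, and it was 0.41 for the 4 members with a mean above the median of all genes. In WT skin 2 members were higher (Tyr with 4 reads against 1, Mlana with 2 against 0) and 1 lower (Pmel), against 18.2% and 16.6% of all genes. The median was -0.0045, against 0.025 for all genes tested, and no member was higher in WT HDM by a ratio whose counting interval leaves 1. The comparisons of one genotype or treatment share libraries with those of the other, so they are not independent of each other.

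An additive fit across all 4 libraries, with a treatment and a genotype term (limma with an intensity trend, Benjamini-Hochberg adjustment over the 15070 genes), takes departure from additivity as its error and has 1 residual degree of freedom per gene. At an adjusted p under 0.05 it called 0 of the 8 members for treatment, where it called 4.48% of all genes higher and 3.03% lower with HDM. For genotype it called 0 members, against 0.0199% of all genes higher and 0.146% lower in KO. At an unadjusted p under 0.05 in limma there were 0 members for treatment, against 2933 of the 15070 genes tested. For genotype there was 1 member, Dct, against 690 of the 15070 genes, so nothing is read from either count. The genotype term of Dct was 1.46 ± 0.37 (SE) on the log2 scale, higher in KO in 2 of 2 treatments, with an adjusted p of 0.145 in limma. For Tyrp1 the limma treatment term was 1.34 ± 0.99 (SE) with an adjusted p of 0.497. The fit could not test whether the HDM difference depends on genotype, since a term for it would use the last degree of freedom.

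Hair growth was read from 13 hair shaft keratins and 9 inner root sheath genes, which are expressed in growing follicles. They had a combined 77612 reads in KO HDM and 29077 in WT HDM, against 804 in naive KO and 622 in naive WT. All 19 of them that were tested were 2-fold or more higher with HDM in each genotype, and the additive fit called 11 of 12 tested shaft keratins and 6 of 7 tested root sheath genes higher with HDM. Both HDM libraries thus carried the transcripts of growing hair, and both naive libraries few of them. Beside this, Tyrp1 and Dct differed between the genotypes in their HDM difference. In KO skin the hair list had a median log2 difference of 7.34 with HDM, with Tyrp1 at 2.69, Dct at 0.58 and Mitf at -0.50. There 7 of 8 members were above 0, all but Mitf, against 8580 of the 15070 genes tested. Of the 7, Tyr, Slc45a2 and Oca2 were at 0 reads in naive KO and passed the filter through KO HDM, so nothing is read from this count. In WT skin the hair list had a median log2 difference of 6.34 with HDM, while Tyrp1 differed by -0.019, Dct by -0.98, Pmel by -1.32 and Mitf by -0.41. Tyr and Mlana were higher there by 1.36 and 1.65, from 4 reads against 1 and 2 against 0. Relative to 1000 reads of the hair genes, the 3 melanin enzymes had 32.2 reads in KO HDM and 15.4 in WT HDM, against 1823 in naive KO and 1352 in naive WT. Most of the enzyme reads were of Dct: 2091 of 2501 in KO HDM, 386 of 448 in WT HDM, 1407 of 1466 in naive KO and 780 of 841 in naive WT. The high naive values come with few hair reads in the naive libraries.

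Between the HDM libraries, hair genes differed as well. Of the 19, 11 were 2-fold or more higher in KO HDM than in WT HDM and 0 lower, with a median log2 difference of 1.15 and a range from -0.040 to 1.78. Tyrp1 at 2.52, Dct at 2.24 and Mlana at 3.63 lay above that range. Tyr at 2.15 and the transporters Slc45a2 and Oca2 at 5.05, with a lower limit of 3.35, also lay above it. These last genes passed the filter through KO HDM and had to be high there, so their place above the range carries no weight. Pmel at 0.90 and Mitf at 0.55 lay within it, below the hair median, and the counting interval of Tyr, 1.80-fold to 20.7-fold, reached into it. The difference between the lists was not tested. Tchh, which encodes trichohyalin of the inner root sheath, had 21904 reads in KO HDM and 5536 in WT HDM, a ratio of 3.45 (3.35 to 3.55). The root sheath keratin Krt71 had 9829 and 3858 reads, a ratio of 2.22 (2.14 to 2.30). The shaft keratin Krt81 had 8456 and 3050 reads, a ratio of 2.42 (2.32 to 2.52), and Krt31 had 1429 and 1280, a ratio of 0.973 (0.901 to 1.05). The shaft keratins Krt32 and Krt34 had 1079 and 685, and 1096 and 622, reads in KO and WT HDM. The root sheath keratins Krt25 and Krt26 had 17644 and 8123, and 682 and 250, reads. Several of these keratins resemble each other closely in sequence, and reads may be split between copies.

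Among 17 regulators of the hair matrix and follicle, 4 of 16 tested were 2-fold or more higher in KO HDM than in WT HDM and 0 lower (median 0.51). Hoxc13, a homeobox gene of the hair shaft, had 549 reads in KO HDM and 192 in WT HDM, against 117 in naive KO and 53 in naive WT. Gata3, a regulator of the inner root sheath that is also expressed in immune cells, was 1.52-fold higher in KO HDM than in WT HDM (1.44 to 1.60), and 2.37-fold lower in WT HDM than in naive WT (2.26 to 2.49). Bmp4, a signal of the dermal papilla, had 1612 and 1083 reads in KO and WT HDM, against 1950 and 1798 in naive KO and naive WT. Msx2, a homeobox gene of the matrix, had 646 and 336 reads in KO and WT HDM, against 150 and 90 in naive KO and naive WT. Msx2 and Hoxc13 were higher with HDM in each genotype, by 4.71-fold (3.85 to 5.80) in KO and 3.70-fold (2.72 to 5.11) in WT for Hoxc13.

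**Figure D4:**
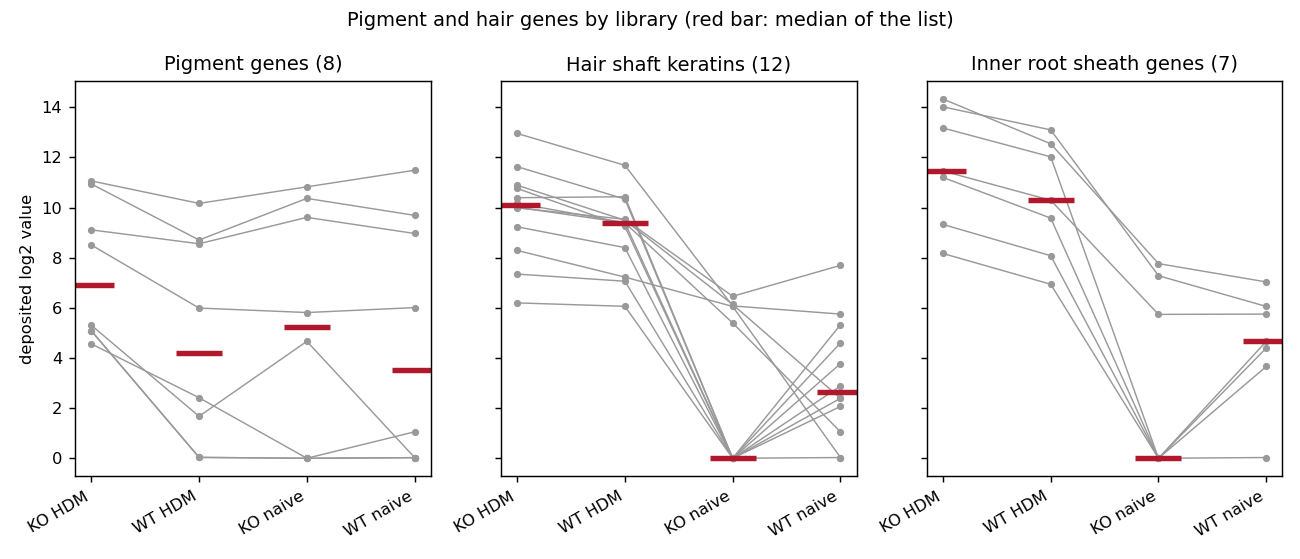
Deposited log2 values (vertical axis) of the 8 pigment genes, 12 tested hair shaft keratins and 7 tested inner root sheath genes in the 4 libraries. Grey lines join the values of 1 gene and red bars are list medians. Hair genes are high in both HDM libraries, with medians of 10.09 and 9.39 for shaft keratins in KO and WT. The pigment median is 6.91 in KO HDM and 4.20 in WT HDM. It includes Tyr, Slc45a2 and Oca2, which passed the filter on summed reads through KO HDM and had to be high there.

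Other genes of the melanocyte lineage were mixed. Of 10 tested regulators and receptors, 3 were 2-fold or more higher and 1 lower in KO HDM than in WT HDM (median 0.12). The additive fit called 0 of the 10 for either term, and 1 of the 11 listed was not tested. Sox10, a transcription factor of the neural crest that melanocytes share with Schwann cells, had 230 reads in KO HDM and 80 in WT HDM, and 122 in naive KO and 452 in naive WT. It was 2.50-fold higher in KO than in WT under HDM (1.93 to 3.27), as most pigment genes were, but 4.18-fold lower in naive KO than in naive WT (3.42 to 5.15). Mc1r, the melanocortin receptor that turns melanocytes to eumelanin, had 16 reads in KO HDM and 0 in WT HDM, and 3 in each naive library. Kit, the stem cell factor receptor of melanocytes and mast cells, had 74 and 69 reads in KO and WT HDM, against 85 and 120 in naive KO and naive WT. The endothelin receptor gene Ednrb, also expressed outside melanocytes, had 461 and 379 reads in KO and WT HDM, against 190 and 91 in naive KO and naive WT. The broadly expressed regulators Tfap2a and Zeb2 differed by -0.029 and -0.36 on the log2 scale between KO HDM and WT HDM.

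Of 11 other melanosome genes tested, 2 were 2-fold or more higher and 1 lower in KO HDM than in WT HDM (median 0.036). Slc24a5, a cation exchanger of the melanosome, had 122 reads in KO HDM and 19 in WT HDM, and 141 in naive KO and 85 in naive WT. It was 5.59-fold higher in KO HDM than in WT HDM (3.43 to 9.61), and 4.38-fold lower in WT HDM than in naive WT (2.64 to 7.63). Gpr143, the ocular albinism receptor gene, had 16 reads in KO HDM, 1 in WT HDM, 1 in naive KO and 0 in naive WT, and lay below the filter on summed reads. Trpm1, a cation channel gene and MITF target, had 29 and 11 reads in KO and WT HDM, against 0 and 3 in naive KO and naive WT. Gpnmb, also a gene of macrophages, was highest in naive KO, with 2756 and 1481 reads in KO and WT HDM, against 5336 and 3280 in naive KO and naive WT. The copper transporter gene Atp7a and the cystine transporter gene Slc7a11, which is also induced by oxidative stress, were the 2 called higher with HDM by the additive fit, by 1.79 and 7.29 on the log2 scale, with adjusted p-values of 0.00306 and 0.000172 in limma. Slc7a11 was 3.33-fold lower in KO HDM than in WT HDM (2.97 to 3.73).

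The machinery that builds and moves melanosomes, which other cells use for their own organelles, differed little between the HDM libraries. Of 21 genes of the biogenesis complexes, 0 were higher and 0 lower by 2-fold in KO HDM against WT HDM (median -0.009), and the additive fit called 0. The adaptor subunit gene Ap3d1 had 1208 and 804 reads in KO and WT HDM, against 877 and 1192 in naive KO and naive WT. The small GTPase gene Rab7 had 2034 and 1985 reads, against 1612 and 1674. Bloc1s4 and Bloc1s3, subunit genes of the BLOC-1 complex, were 1.85-fold (1.54 to 2.23) and 1.19-fold (0.963 to 1.47) higher in KO HDM than in WT HDM. Among 5 motility genes 1 was 2-fold higher and 0 lower. Myo5a, the myosin that carries melanosomes along actin, had 839 and 769 reads in KO and WT HDM, against 1429 and 1333 in naive KO and naive WT. Mlph, its melanophilin adaptor, had 29 and 23 reads in KO and WT HDM, against 2 and 92. Rab1a, a GTPase of general membrane traffic, had 1810 and 1697 reads, against 1916 and 1682.

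Signals from the surroundings of melanocytes, from keratinocytes and dermal papilla, had 1 of 8 tested higher and 3 lower in KO HDM than in WT HDM (median -0.11). Kitl, the stem cell factor gene, had 197 and 104 reads in KO and WT HDM, against 314 and 194 in naive KO and naive WT. Corin, a dermal papilla protease that modifies coat colour in mice through the agouti pathway, had 66 reads in KO HDM and 426 in WT HDM, and 1129 in naive KO and 1993 in naive WT. It was the one gene of this list that the additive fit called for treatment, by -3.13 on the log2 scale with an adjusted p of 4.07e-06 in limma. Edn1, an endothelin gene, had 57 and 113 reads in KO and WT HDM, against 0 and 39 in naive KO and naive WT. Mgrn1, a ubiquitin ligase gene of the mahoganoid coat colour locus, had 407 and 465 reads, against 352 and 413. The agouti gene Asip was not analysed here.

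**Figure D5:**
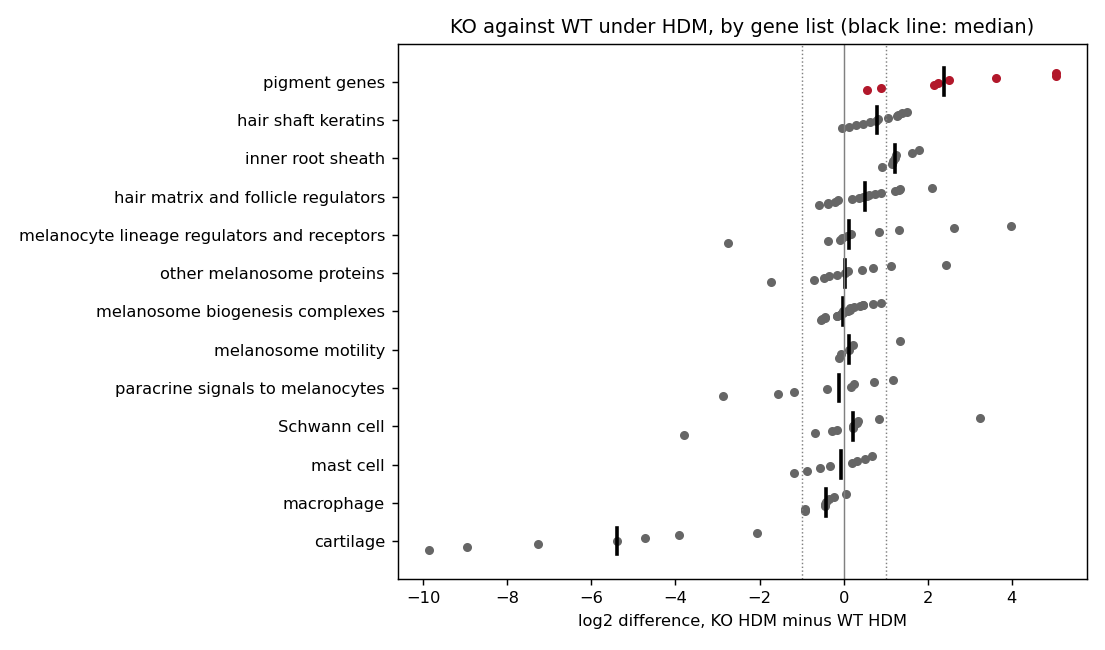
Log2 difference of KO HDM minus WT HDM (horizontal axis) for each tested gene of 13 lists, 1 point per gene, with the median as a black line and 2-fold marked by dotted lines. The pigment genes have a median of 2.38, inner root sheath genes 1.23, hair shaft keratins 0.80 and cartilage genes -5.39. The pigment median includes Tyr, Slc45a2 and Oca2, which passed the filter on summed reads through KO HDM and had to be high there. It is 1.57 for the 4 members with a mean above the median of all genes.

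Markers of other cells that express some of these genes stood beside them as follows, and their part in the pigment values was not tested. The 12 Schwann cell markers summed to 3459 reads in KO HDM and 3728 in WT HDM, against 16923 in naive KO and 15973 in naive WT, with Cdh19 at 0 throughout. These sums lean on S100b, with 81, 994, 8110 and 4805 reads in that order, and give no direction between genotypes. Of 11 tested, 1 was 2-fold higher and 1 lower in KO HDM against WT HDM, with 7 above 0 and 4 below. In naive KO against naive WT, 4 were above 0 and 7 below. The 8 mast cell markers summed to 10650 and 7420 reads in KO and WT HDM, against 9487 and 9378 in naive KO and naive WT, with Tpsab1 and Fcer1a at 0 in naive KO. The markers did not share a direction. Tpsb2 had 5795 and 3538 reads, against 1414 and 2449, and Mcpt4 had 2308 and 1254, against 4680 and 3246. With HDM, 4 were 2-fold or more higher and 3 lower in KO, and 2 higher and 3 lower in WT. The 8 macrophage markers summed to 6759 and 7425 reads, against 9115 and 4003, with none at 0. The 8 cartilage markers were at 0 for 4 of 8 in KO HDM, and 7 of 7 tested were 2-fold or more lower there than in WT HDM, with a median of -5.39, or -4.73 with genes at 0 set to 3 reads. Secretory genes of salivary and lacrimal glands, named by an earlier analysis of these data, summed to 75 and 647 reads in KO and WT HDM, against 75254 and 617124 in naive KO and naive WT. Differences in cartilage or gland transcripts and differences in genotype or treatment therefore cannot be told apart for the pigment genes.

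Outside the members, the genes with the profile nearest to the mean of the 8, by Euclidean distance between log2 values centred over the 4 libraries, were Sox11, 6330403K07Rik and Clcf1, at distances of 0.49, 0.69 and 0.76. Sox11 had 95 reads in KO HDM and 11 in WT HDM, against 16 in naive KO and 7 in naive WT. Clcf1 had 428 and 114 reads, against 120 and 70. 6330403K07Rik rested on 15 and 2 reads, against 3 and 3. Of the members, Tyrp1 lay at 0.55 and Dct at 1.43. Mlana at 2.99, Pmel at 2.31 and Mitf at 2.25 lay far from their own mean, with 63.9%, 26.6% and 22.3% of all genes tested nearer to it. Slc45a2 and Oca2, each at 2.16, and Tyr at 2.15 lay almost as far as Mitf, with 15.8% and 15% of genes nearer. The mean includes Tyr, Slc45a2 and Oca2, which passed the filter on summed reads through KO HDM and raise the mean there. Each member is also part of the mean it is set against. With 4 libraries such a likeness is weak and is given as a description.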

How the data were processed

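Skin RNA of 4 libraries, 500 ng each, was sequenced with a 3′ kit (QuantSeq), per the labels. The authors deposited 1 table per library with log2 values of 23282 lines, 3 decimals each. The submitters' processing notes name Bowtie2 and bedtools and the mm10 build, with no role for either tool. Normalization and read counting are not stated there. Of the symbols, 35 stood on several lines; these 79 lines were dropped.

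On the linear scale, low values fell on multiples of a step per library (0.936 to 1.08), which showed the deposited log2 values to be log2(x + 1) of scaled reads. Division by the step gave reads, 94.9% to 99.0% of them whole within 0.1 among genes of up to 200 reads. Ratios use these reads times the step, with exact 95% Clopper-Pearson intervals conditional on the summed reads. A 0 counts as up to 3 reads in a lower limit. Genes with 20 or more summed reads were tested (15070). A gene counts as higher or lower at a log2 difference of 1, a scale that understates the change of low genes. Intervals came from scipy 1.17.1 under Python 3.11.15 and fits from limma 3.58.1 under R 4.3.3, whose fit was tested on simulated data. Its prior had 33.4 degrees of freedom. Named genes of other lists were the 2 highest in mean, the 2 with the largest WT difference with 50 or more reads, and fixed pigment genes; markers of other cells are given as sums. The members and lists were chosen with earlier results of these data known. Alternatives are given in the closing section.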

Additional observations from a re-analysis of the deposited data

Results flagged for a closer look

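The HDM difference of Dct had opposite signs in the genotypes, with counting intervals that leave 1 in each. It was 0.58 in KO and -0.98 in WT on the log2 scale, so that the KO difference minus the WT difference was 1.56. The same held for Pmel, with 0.24 in KO, -1.32 in WT and 1.56 between them, and equally for its genotype difference, 0.90 under HDM and -0.66 in naive skin. None of these differences between groups was tested, since each group is 1 library, and the Pmel values carry the reads shared with Dgka.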

How the results depend on the processing

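Of 106 values recomputed under other settings, 78 stayed the same. For a count this means equal or close to the main count, and for a median within counting error. Of the others, 18 were weaker, 4 stronger and 6 moved. Only a median of at least 1 in size could be labelled as reversed, so that the 0 reversals say little. Of the 6 members higher in KO HDM than in WT HDM, Tyr, Slc45a2 and Oca2 passed the filter on summed reads through KO HDM. They had to be high there, so nothing is read from a count that stays the same. The 6 remained 6 in number under each setting except the filter on mean level. That filter, a mean above the median of all genes, kept Tyrp1, Dct, Pmel and Mitf, and gave 2 members with a median of 1.57 in this comparison. For HDM against naive in KO it gave 1 member higher and a median of 0.41, and 0 members higher or lower in naive KO against WT and 0 higher in WT with HDM. The KO median for HDM was 1.15 in RPM (reads scaled to library totals of 1000000), 1.19 without genes over 0.5% of a library, 1.26 with a pseudocount of 8 and 2.69 without Pmel, an alternative chosen after seeing the data. For HDM in WT, 0 members were higher in RPM (with or without genes over 0.5%), with a pseudocount of 8 or with counting intervals that leave 1, and 1 at 3-fold. There 2 were lower without genes over 0.5% or after centring, as Dct crossed the limit, and 0 at 3-fold or without Pmel. The 1 member lower in naive KO, Tyr with 0 reads against 1, became 0 under RPM (both kinds), centring, a pseudocount of 8, 3-fold and counting intervals. The genotype term called 1 member, Dct, without the expression filter (adjusted p = 0.0123 in limma) and in RPM (0.00804), and 0 without the intensity trend (0.993). No paired analysis was possible because each group holds 1 library, which also means that none could be left out. Depth limits Tyr, Mlana, Slc45a2 and Oca2 most, whose ratios rest on few or no reads in at least 1 library.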
